A study of Homo sapiens with 16 samples.

Results

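The comparison described here is 451Lu melanoma cells 24 h after dabrafenib was withdrawn, set against the same cells kept on dabrafenib at 1 µM. It rests on 4 of the 16 libraries of the series, chosen by their labels: 2 from cells given DMSO in place of drug for 24 h, and 2 from cells on drug. All 8 libraries of 451Lu (24, 72 and 120 h off drug, and on drug) entered the fit, so that they share 1 estimate of the spread. Total RNA was sequenced, and the deposited table gives read counts per gene. The cells are the dabrafenib-resistant derivative called 451Lu BR in the treatment notes, which name dabrafenib alone, whereas the source name calls the cells resistant to dabrafenib and trametinib. The other cell line of the series, DR A375, came off dabrafenib (0.5 µM) and trametinib (0.05 µM), and its libraries at 24 h and on drug serve below as the only comparison outside 451Lu. The labels list no 451Lu group kept on drug for a further 24 h. Withdrawal, the change to DMSO and time in culture therefore cannot be told apart. The labels say neither whether both libraries of a group had their own culture nor whether the resistant line is 1 clone, and the p-values can therefore speak only of the scatter among the sequenced libraries, which may be technical.

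Dabrafenib binds the mutated BRAF kinase, which in melanoma keeps the MEK and ERK kinases active. ERK switches on growth genes such as CCND1, and it also switches on its own brakes, the DUSP phosphatases and the Sprouty proteins. In the melanocyte lineage SOX10 drives MITF, and MITF drives the genes of pigment synthesis. Melanoma cells that grow resistant to such inhibitors can become dependent on the drug, a state known as drug addiction.

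The libraries at 24 h held 14002955 and 11659143 counts, and those on drug 14097739 and 16447548 (all 16 libraries, 9714190 to 16691725). Levels are in CPM, counts scaled to a common (TMM-adjusted) library size. Within each group the 2 libraries differed by more than sampling noise, with a chi-square of 3.33 per degree of freedom at 24 h and 2.70 on drug, so neither pair is 1 library deposited in duplicate. Melanocyte markers were present in all 4 libraries. PMEL, the matrix protein of melanosomes, had 1905 and 1956 CPM at 24 h, against 8515 and 9081 CPM on drug. TYR, the first enzyme of melanin synthesis, had 21.1 and 28.3 CPM at 24 h, against 267 and 268 CPM on drug. TYRP1, another enzyme of that pathway, had 0.418 and 0.582 CPM at 24 h, against 1.49 and 1.66 CPM on drug. PAX3, a factor upstream of MITF, had 27.3 and 32.1 CPM at 24 h, against 25.8 and 24.9 CPM on drug. Of 14 markers of other cell types found in the table, EPCAM (epithelium), PTPRC (blood cells) and ALB (liver) had 0 counts in all 4 libraries. Summed over the 14, these markers came to 101 and 105 CPM at 24 h, against 169 and 157 CPM on drug, of which LUM made up most on drug. Without LUM, a split made after its values were seen, the other 13 summed to 77 and 76 CPM at 24 h, against 23.5 and 24.9 CPM on drug.

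A large share of the transcriptome differed in level at 24 h off drug. The quasi-likelihood test of edgeR called 7491 of 13851 genes at an adjusted p under 0.05, or 54.1%. Of all genes tested, 29.2% (4044) rose and 24.9% (3447) fell, and every list below is to be read against these shares. The lists were chosen with earlier results of these data known, so an excess over these shares is no independent support. Most calls were of small size, with a median absolute log2 fold change of 0.58 among called genes. At least 2-fold changes numbered 1204 upward and 951 downward, and at least 8-fold changes 285 upward and 130 downward. The median log2 fold change of all genes tested was 0.030. Errors after log2 fold changes are SE, and those after mean levels are SD (n = 2 per group). An exact permutation test of 2 libraries against 2 cannot go below a two-sided p of 0.333, so the calls rest on the spread pooled across genes.

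**Figure D1:**
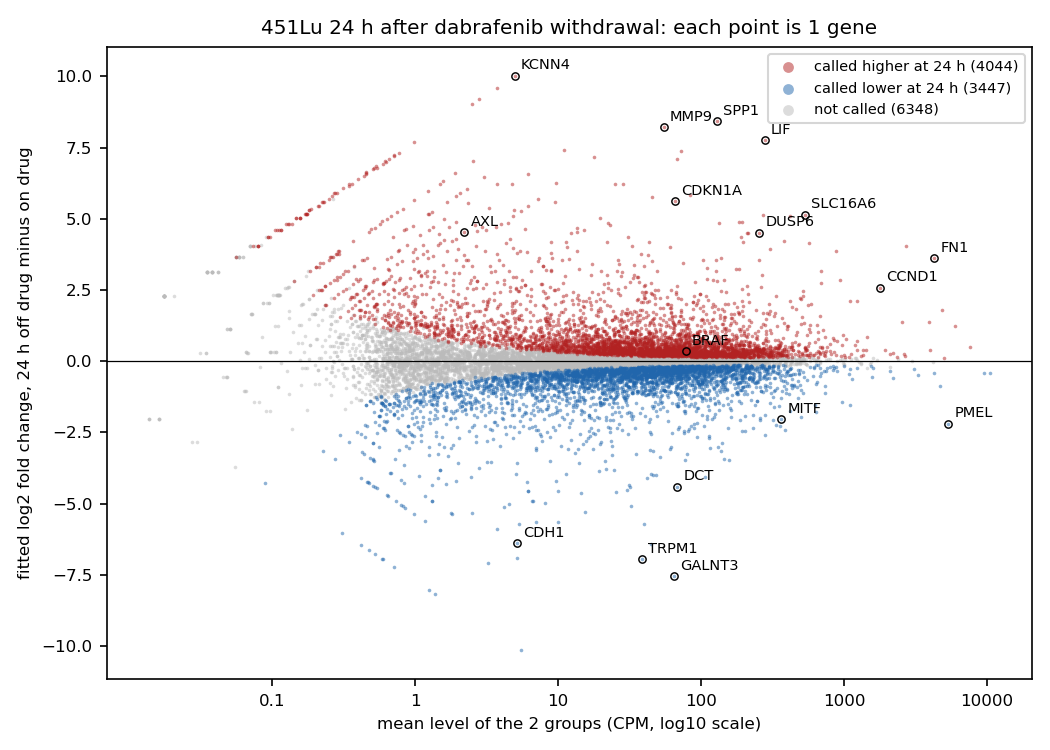
Fitted log2 fold change of each gene (vertical axis, 24 h off drug minus on drug) against its mean level in CPM (horizontal axis, log10 scale); red points were called higher (4044), blue points called lower (3447), grey points not called. DUSP6, LIF, SPP1 and FN1 lie above 0 and MITF, DCT and PMEL below it; the straight rows of points at low levels are genes with few or no counts in 1 group.

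Most of the listed genes that ERK is known to switch on rose in RNA level, while ERK activity itself was not measured. In the list of ERK feedback and output genes 20 rose and 4 fell of 25 tested, with a median log2 fold change of 2.21. DUSP6 (ENSG00000139318, chr12:89347232-89353271, GRCh38), the phosphatase that inactivates ERK in the cytoplasm, had 538 and 444 CPM at 24 h, against 23 and 20.2 CPM on drug. Both libraries at 24 h lay far above both on drug, a rise of 22.8-fold (log2 fold change 4.51 ± 0.098, adjusted p = 3.51e-15, edgeR). SPRY4, a Sprouty inhibitor that acts upstream of RAF, had 95.2 and 89.7 CPM at 24 h, against 23.1 and 23.3 CPM on drug (log2 fold change 2.00 ± 0.068, adjusted p = 4.84e-13, edgeR). Both brakes on the pathway were thus higher in each library off drug. CCND1 (ENSG00000110092, chr11:69641087-69654474), which encodes cyclin D1, had 3199 and 2915 CPM at 24 h, against 505 and 514 CPM on drug. Its level rose 6.00-fold (log2 fold change 2.59 ± 0.059, adjusted p = 6.56e-15, edgeR), with no overlap between the groups. PHLDA1, a pleckstrin-like protein induced by growth factors, had 1259 and 1224 CPM at 24 h, against 139.6 and 138 CPM on drug (log2 fold change 3.16 ± 0.058, adjusted p = 5.51e-16, edgeR). IER3, an early response gene of cell survival, had 829.7 and 808 CPM at 24 h, against 22.5 and 25.8 CPM on drug (log2 fold change 5.08 ± 0.096, adjusted p = 6.87e-16, edgeR). These were the list's members with the smallest p among risers. KCNN4, a calcium-activated potassium channel, had 11.8 and 8.06 CPM at 24 h, against 0 and 0 CPM on drug. Because neither library on drug held a count, its rise is given as a lower bound of at least 113-fold against a floor of 3 counts over the group.

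The list also had members that fell, and they included transcription factors and receptors. ETV5, a factor of the ETS family, fell to 102 and 120.1 CPM at 24 h, against 231 and 249 CPM on drug (log2 fold change -1.11 ± 0.088, adjusted p = 1.98e-08, edgeR). EPHA4, an ephrin receptor, fell to 18.5 and 17.3 CPM at 24 h, against 34.9 and 32.1 CPM on drug (log2 fold change -0.90 ± 0.098, adjusted p = 9.69e-07, edgeR). MYC, the growth-promoting transcription factor, fell to 125 and 118 CPM at 24 h, against 165 and 175 CPM on drug, in both libraries (log2 fold change -0.48 ± 0.062, adjusted p = 6.1e-06, edgeR). Tested against a fold of 1.5, MYC was not called. EPHA2, another ephrin receptor and the list's largest fall by fold, was noticed after its values were seen (log2 fold change -2.83 ± 0.43, edgeR adjusted p = 3.5e-05).

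For DUSP6 the 250 bases before a gene start are shown, because it is a well known target of ERK signalling. That start is the one of a RefSeq entry, and the window lies inside the wider gene span given above. The sequence is from RefSeq (GRCh38.p14, minus strand, chr12:89352502-89352751), written 5′ to 3′, and capitals mark a match to the ETS core CGGAAG, here on the opposite strand, 62 bases before the start.
DUSP6: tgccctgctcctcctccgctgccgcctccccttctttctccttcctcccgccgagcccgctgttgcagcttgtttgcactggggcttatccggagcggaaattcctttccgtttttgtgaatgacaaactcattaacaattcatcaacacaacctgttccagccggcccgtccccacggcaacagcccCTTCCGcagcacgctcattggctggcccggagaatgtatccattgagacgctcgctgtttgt
In the ERK feedback and output list 3 of 28 such windows of 15 matched genes (10.7%) held CGGAAG on either strand, against 16.5% of 35116 windows of all genes. The match describes the letters only and draws nothing about a factor's binding.

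**Figure D2:**
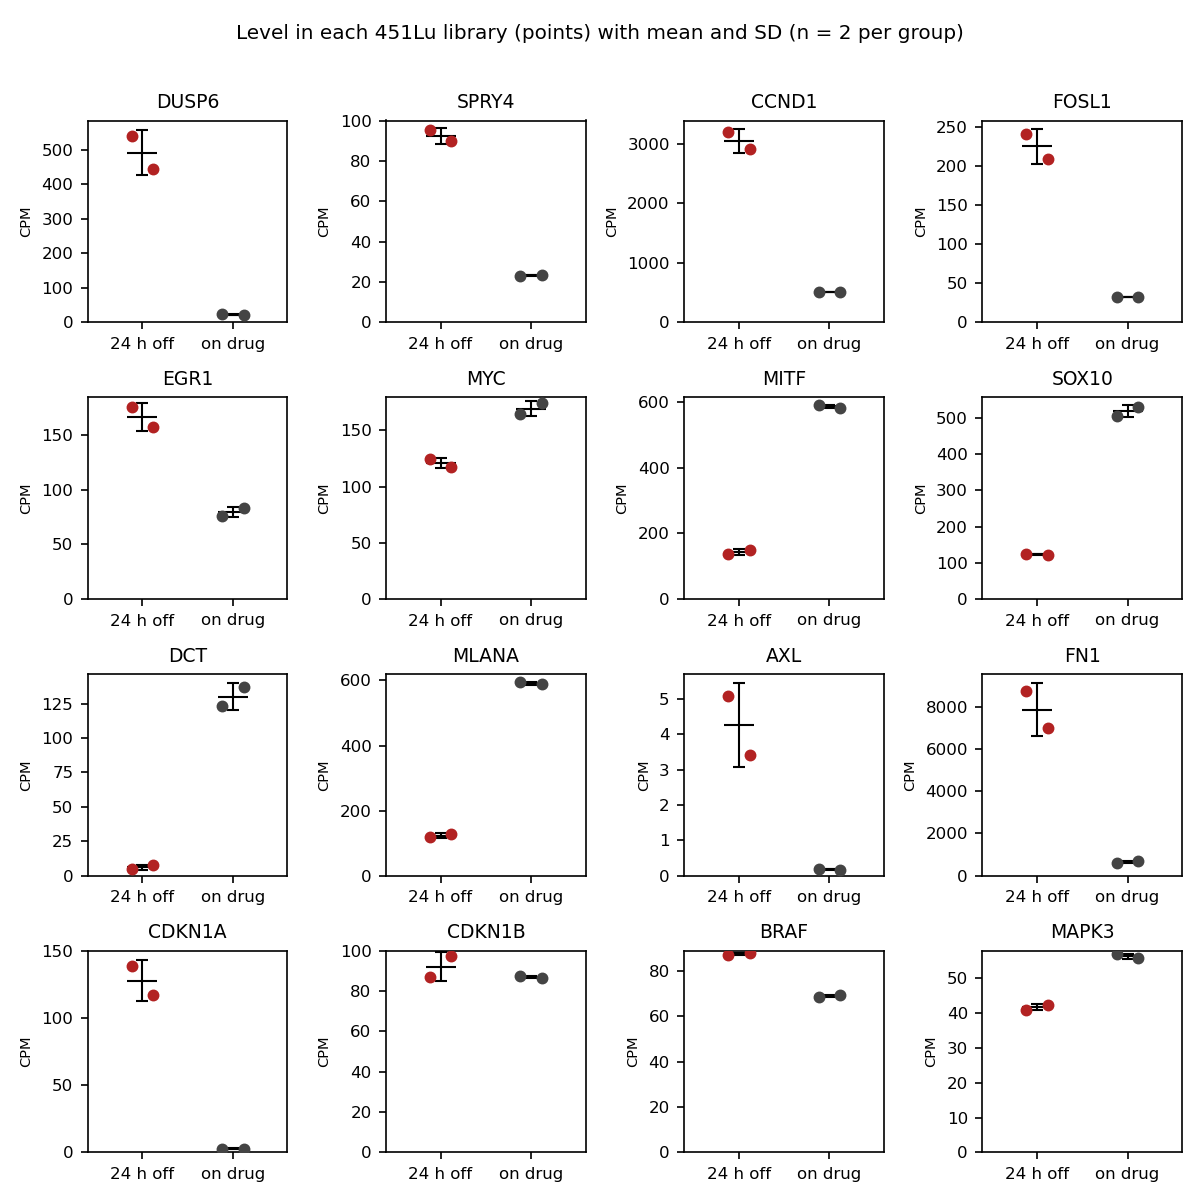
Level (CPM, vertical axis from 0) of 16 genes in each 451Lu library, 24 h off drug on the left and on drug on the right; points are libraries, the horizontal bar is the mean and the whiskers the SD (n = 2 per group). DUSP6, SPRY4, CCND1, FOSL1, EGR1, AXL, FN1, CDKN1A and BRAF are higher at 24 h and MYC, MITF, SOX10, DCT, MLANA and MAPK3 lower, while for CDKN1B the groups differ by less than the test could call.

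Immediate-early genes, the first to answer a growth signal, and the AP-1 factors also rose. In this list 18 rose and 3 fell of 24 tested, with a median log2 fold change of 1.43. FOSL1, an AP-1 subunit that ERK also stabilises as a protein, had 241 and 209.9 CPM at 24 h, against 32.4 and 32.5 CPM on drug (log2 fold change 2.80 ± 0.081, adjusted p = 8.29e-14, edgeR). EGR3, a zinc-finger factor, had 30.1 and 28.7 CPM at 24 h, against 1.10 and 1.27 CPM on drug (log2 fold change 4.62 ± 0.15, adjusted p = 2.51e-13, edgeR). EGR1, its better known relative, had 175 and 157 CPM at 24 h, against 76.3 and 82.9 CPM on drug. The rise of EGR1 was 2.09-fold (log2 fold change 1.06 ± 0.082, adjusted p = 1.28e-08, edgeR), smaller than those of FOSL1 and EGR3 as fitted. MCL1, which protects mitochondria from BAX and BAK and belongs also to the apoptosis list, had 449 and 464 CPM at 24 h, against 145 and 145 CPM on drug (log2 fold change 1.66 ± 0.056, adjusted p = 4.01e-13, edgeR). IER5, a growth-factor-induced gene, fell to 15.3 and 12.8 CPM at 24 h, against 21.1 and 21.1 CPM on drug (log2 fold change -0.57 ± 0.13, adjusted p = 0.00147, edgeR).

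The kinases and adaptors of the cascade itself moved by smaller amounts. Of the RAS, RAF, MEK and ERK genes, 17 rose and 2 fell of 23 tested, and the median log2 fold change was 0.44. SHC1, the adaptor that links receptors to RAS, had 292 and 284 CPM at 24 h, against 134 and 132 CPM on drug (log2 fold change 1.11 ± 0.056, adjusted p = 6.45e-11, edgeR). RASA1, a GTPase-activating protein that turns RAS off, had 82.3 and 87.3 CPM at 24 h, against 36.1 and 37.2 CPM on drug (log2 fold change 1.21 ± 0.071, adjusted p = 4.04e-10, edgeR). MAP2K1, which encodes MEK1, had 139.5 and 144 CPM at 24 h, against 68.2 and 72.4 CPM on drug (log2 fold change 1.01 ± 0.060, adjusted p = 5.53e-10, edgeR). BRAF (ENSG00000157764, chr7:140719327-140924764), the target of dabrafenib, had 86.8 and 87.6 CPM at 24 h, against 68.5 and 69.2 CPM on drug, a rise of 1.27-fold (log2 fold change 0.34 ± 0.066, adjusted p = 0.000377, edgeR). MAPK3, which encodes ERK1, fell to 40.9 and 42.2 CPM at 24 h, against 56.7 and 55.6 CPM on drug (log2 fold change -0.44 ± 0.085, adjusted p = 0.000417, edgeR). BRAF overlaps NDUFB2 on the other strand, and the strand setting of the count is not given in the sources used here, so reads of the 2 cannot be told apart there.

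Melanocyte genes fell as a group. Of the 26 melanocyte regulators and pigment genes, all tested, 23 fell and 2 rose, with a median log2 fold change of -2.11. MITF (ENSG00000187098, chr3:69739435-69968337), the master regulator of the lineage, had 137 and 149.9 CPM at 24 h, against 590.5 and 583 CPM on drug. Its level was 4.09-fold lower at 24 h, with groups far apart (log2 fold change -2.03 ± 0.063, adjusted p = 1.72e-13, edgeR). SOX10, the neural crest factor that drives MITF, had 125 and 123 CPM at 24 h, against 506 and 531 CPM on drug (log2 fold change -2.07 ± 0.064, adjusted p = 1.66e-13, edgeR). Both regulators thus fell by about the same amount. DCT (ENSG00000080166, chr13:94436808-94479682), which converts dopachrome in melanin synthesis, had 4.95 and 7.48 CPM at 24 h, against 123 and 137 CPM on drug, and was 21.2-fold lower (log2 fold change -4.41 ± 0.14, adjusted p = 1.59e-13, edgeR). MLANA, a melanosomal antigen, had 118 and 128 CPM at 24 h, against 595 and 588 CPM on drug (log2 fold change -2.26 ± 0.082, adjusted p = 9.26e-13, edgeR). SLC45A2, a melanosomal transporter, had 27.3 and 28.7 CPM at 24 h, against 251 and 243 CPM on drug (log2 fold change -3.14 ± 0.077, adjusted p = 1.25e-14, edgeR). Its p was the smallest of the list. OCA2, which encodes a melanosomal chloride channel, had 3.14 and 2.49 CPM at 24 h, against 56.3 and 64.8 CPM on drug (log2 fold change -4.41 ± 0.14, adjusted p = 1.53e-13, edgeR). RAB38, a GTPase that carries enzymes to melanosomes, had 34.9 and 34.2 CPM at 24 h, against 152 and 157 CPM on drug (log2 fold change -2.16 ± 0.067, adjusted p = 1.59e-13, edgeR). TRPM1, a cation channel whose gene hosts MIR211, had 0.488 and 0.748 CPM at 24 h, against 75.6 and 77.6 CPM on drug, and was 124-fold lower (log2 fold change -6.96 ± 0.27, adjusted p = 7.52e-12, edgeR). In bulk RNA, fewer cells that express these genes and less of their RNA per cell cannot be told apart.

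The 2 members that rose were BCL2A1 and MC1R. BCL2A1, an anti-apoptotic relative of BCL2 that MITF is known to drive, had 171 and 158 CPM at 24 h, against 43.6 and 42.4 CPM on drug (log2 fold change 1.94 ± 0.071, adjusted p = 1.09e-12, edgeR). MC1R, the receptor for melanocyte-stimulating hormone, had 31.2 and 33.9 CPM at 24 h, against 23.6 and 25.6 CPM on drug (log2 fold change 0.40 ± 0.10, adjusted p = 0.00301, edgeR), a call lost when tested against a fold of 1.5.

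Promoter windows of DCT and OCA2 are shown as examples of pigment genes that hold an E-box, and were chosen after the matches were seen. Capitals mark matches to CATGTG, an E-box that MITF is known to bind, on either strand (CACATG on the opposite one). Both sequences are from RefSeq (GRCh38.p14, minus strand), the 250 bases before a gene start, at chr13:94479683-94479932 for DCT and chr15:28099316-28099565 for OCA2.
DCT: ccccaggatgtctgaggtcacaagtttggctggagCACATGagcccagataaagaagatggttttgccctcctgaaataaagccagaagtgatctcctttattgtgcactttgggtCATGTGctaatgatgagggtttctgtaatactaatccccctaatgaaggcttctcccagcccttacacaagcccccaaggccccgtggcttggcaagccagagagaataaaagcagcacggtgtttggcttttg
OCA2: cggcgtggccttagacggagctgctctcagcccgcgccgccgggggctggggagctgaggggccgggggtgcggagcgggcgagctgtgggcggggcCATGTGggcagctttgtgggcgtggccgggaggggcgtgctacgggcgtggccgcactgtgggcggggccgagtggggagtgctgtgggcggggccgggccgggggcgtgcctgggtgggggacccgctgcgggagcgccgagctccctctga
A second RefSeq window of DCT and the window of MLANA hold no match. The matches begin 215 and 134 bases before the start in DCT and 153 bases before it in OCA2. Among the melanocyte genes, 20 matched a RefSeq entry, and 13 of their 34 windows (38.2%) held CATGTG, against 9.42% of all 35116. The genes that held it included BCL2A1 and MC1R, which rose, at 25 and 64 bases before the start. This is a description, with no test, and several windows belong to the same gene.

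**Figure D3:**
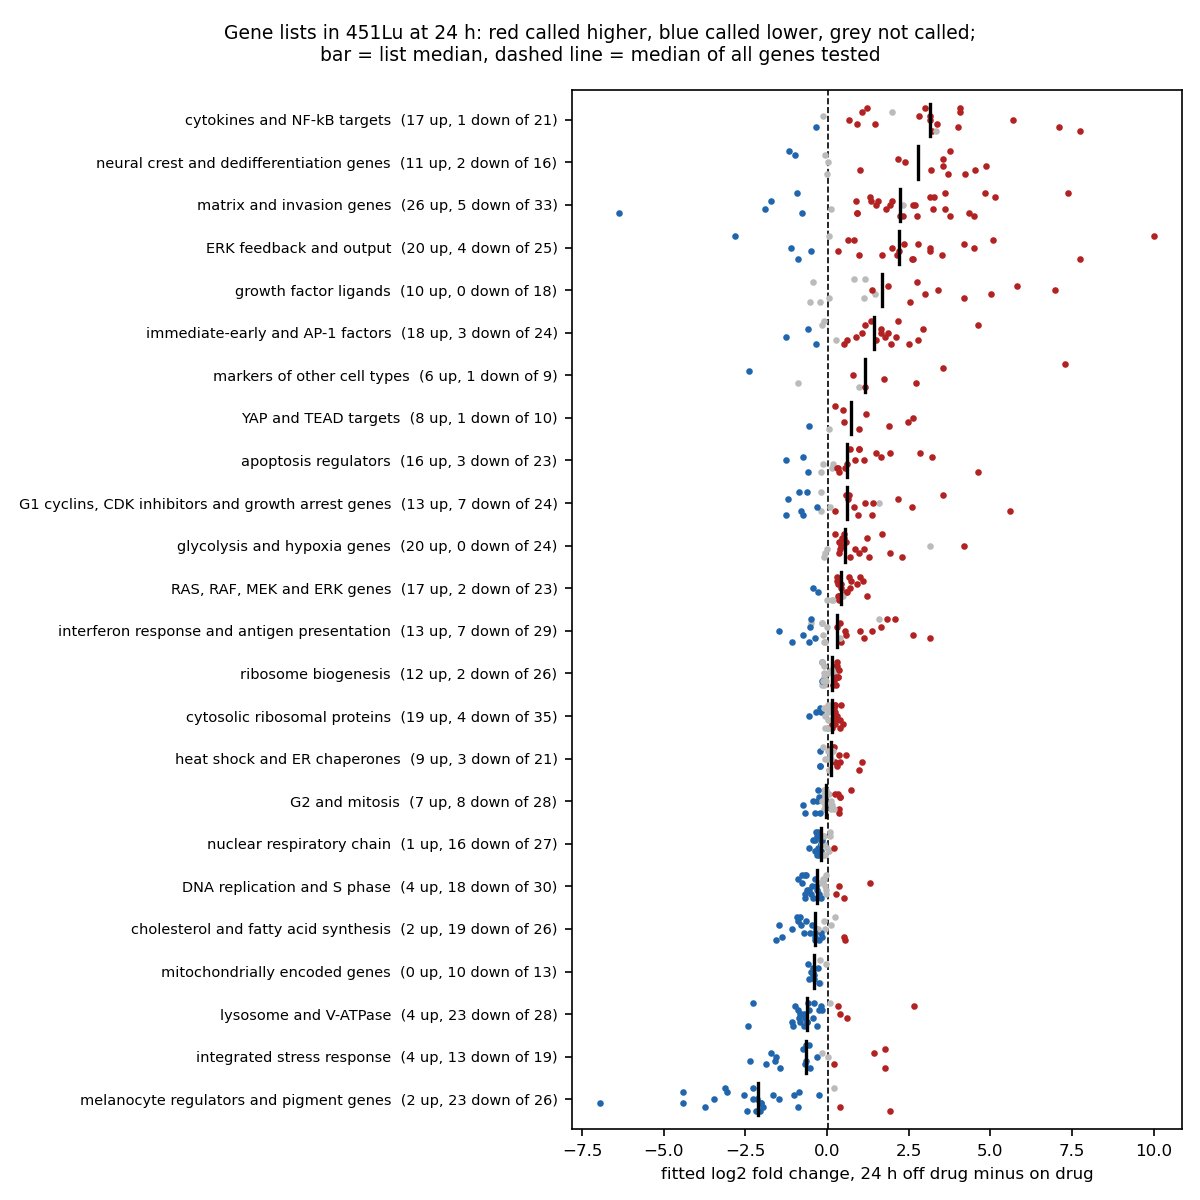
Fitted log2 fold change (horizontal axis, 24 h off drug minus on drug) of each tested member of 24 gene lists, ordered by list median; red points were called higher, blue points called lower, grey points not called, bars are list medians and the dashed line is the median of all genes tested (0.030). The cytokine list lies at the top with a median of 3.15 and the melanocyte list at the bottom with -2.11.

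Most genes of the neural crest and dedifferentiation list rose, while SOX10, the neural crest factor given above, fell. In that list 11 rose and 2 fell of 16 tested, with a median log2 fold change of 2.77. NT5E (ENSG00000135318, chr6:85449584-85495791), the enzyme CD73 that makes adenosine outside the cell, had 392 and 357 CPM at 24 h, against 12.7 and 12.9 CPM on drug. It rose 29.3-fold (log2 fold change 4.87 ± 0.078, adjusted p = 1.55e-16, edgeR). TNC, the matrix protein tenascin C, had 751 and 697 CPM at 24 h, against 40 and 37.4 CPM on drug (log2 fold change 4.23 ± 0.076, adjusted p = 5.51e-16, edgeR). CAV1, the coat protein of caveolae, had 504 and 431 CPM at 24 h, against 39.5 and 39.6 CPM on drug (log2 fold change 3.56 ± 0.087, adjusted p = 1.25e-14, edgeR). AXL, a receptor tyrosine kinase often found in drug-resistant melanoma, had 5.09 and 3.41 CPM at 24 h, against 0.194 and 0.166 CPM on drug (log2 fold change 4.52 ± 0.44, adjusted p = 2.53e-07, edgeR), and its level at 24 h was still only a few CPM. MET, the receptor of hepatocyte growth factor, fell to 106 and 113 CPM at 24 h, against 242 and 249.6 CPM on drug (log2 fold change -1.17 ± 0.061, adjusted p = 1.06e-10, edgeR). Receptors of this list therefore moved in both directions.

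Most matrix and invasion genes rose as well. Of this list 26 rose and 5 fell of 33 tested, with a median log2 fold change of 2.22. PLAUR (ENSG00000011422, chr19:43646095-43670547), the receptor that holds urokinase at the cell surface, had 563 and 492 CPM at 24 h, against 15.1 and 14.8 CPM on drug. It rose 35.4-fold (log2 fold change 5.15 ± 0.082, adjusted p = 1.55e-16, edgeR). ITGA3, an integrin chain that binds laminin, had 389 and 342 CPM at 24 h, against 19.4 and 16.6 CPM on drug (log2 fold change 4.35 ± 0.090, adjusted p = 1.8e-15, edgeR). CD44, the receptor of hyaluronan, had 1249 and 1147 CPM at 24 h, against 176 and 181 CPM on drug (log2 fold change 2.74 ± 0.065, adjusted p = 8.69e-15, edgeR). FN1 (ENSG00000115414, chr2:215360440-215436172), which encodes fibronectin, had 8761 and 6981 CPM at 24 h, against 611 and 673 CPM on drug. Fibronectin RNA was 12.3-fold higher at 24 h, and of the 2 libraries off drug the first was the higher (log2 fold change 3.62 ± 0.10, adjusted p = 8.29e-14, edgeR). CDH1, which encodes E-cadherin, had 0.0697 and 0.166 CPM at 24 h, against 9.30 and 11.2 CPM on drug (log2 fold change -6.38 ± 0.39, adjusted p = 1.59e-09, edgeR). With 3 counts in all at 24 h, its ratio of levels, on drug over 24 h, was 90.9 (95% interval 30.8 to 443) by an exact count interval. PLAT, the tissue plasminogen activator, fell to 74.3 and 77.5 CPM at 24 h, against 256 and 243 CPM on drug (log2 fold change -1.72 ± 0.059, adjusted p = 4.84e-13, edgeR). MMP2, a gelatinase, fell to 7.74 and 6.07 CPM at 24 h, against 24.2 and 27.7 CPM on drug (log2 fold change -1.90 ± 0.13, adjusted p = 2.84e-09, edgeR).

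PLAUR's window is shown as the matrix gene with the smallest p, chosen also because it holds the AP-1 motif TGANTCA, of the factors described above. It is the 250 bases before a RefSeq gene start (GRCh38.p14, minus strand, chr19:43670170-43670419), and capitals mark the match, 186 bases before the start. This window too lies inside the wider gene span given above.
PLAUR: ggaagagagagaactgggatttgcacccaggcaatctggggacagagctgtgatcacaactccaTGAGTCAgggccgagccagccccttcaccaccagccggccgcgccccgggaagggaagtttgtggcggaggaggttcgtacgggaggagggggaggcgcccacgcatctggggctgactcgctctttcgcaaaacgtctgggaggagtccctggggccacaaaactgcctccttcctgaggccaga
Of the 36 windows of 22 matched matrix and invasion genes 5.56% held TGANTCA, a share near the 6.57% of all windows.

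Secreted signals rose strongly. In the cytokine and NF-kB list 17 of 21 tested members rose and 1 fell, and the median log2 fold change was 3.15 (2.99 with the 2 members at 0 on drug set to their lower bounds). LIF (ENSG00000128342, chr22:30240447-30246851), a cytokine of the interleukin-6 family, had 671 and 438 CPM at 24 h, against 2.39 and 2.71 CPM on drug. It rose 216-fold (log2 fold change 7.75 ± 0.26, adjusted p = 4.57e-13, edgeR). IL11, of the same family, had 15.7 and 12.5 CPM at 24 h, against 0.388 and 0.166 CPM on drug (log2 fold change 5.68 ± 0.26, adjusted p = 2.13e-11, edgeR). NFKB2, a subunit of NF-kB, had 79.2 and 78.9 CPM at 24 h, against 28.3 and 29.3 CPM on drug (log2 fold change 1.45 ± 0.070, adjusted p = 3.53e-11, edgeR). NFKB1, the other precursor subunit, was the list's only fall, at 40.4 and 40.7 CPM at 24 h, against 50.7 and 51.4 CPM on drug (log2 fold change -0.33 ± 0.075, adjusted p = 0.00139, edgeR). Of growth factor ligands 10 rose and 0 fell of 18 tested, with a median log2 fold change of 1.67 (1.62 with 2 members at their bounds). VEGFA, the main angiogenic factor, had 499 and 457 CPM at 24 h, against 55.3 and 62.8 CPM on drug (log2 fold change 3.01 ± 0.071, adjusted p = 8.46e-15, edgeR). STC1, a secreted glycoprotein, had 167 and 163 CPM at 24 h, against 2.26 and 3.48 CPM on drug (log2 fold change 5.82 ± 0.19, adjusted p = 2.72e-13, edgeR). VEGFC, the lymphatic growth factor, had 67.4 and 56.3 CPM at 24 h, against 6.91 and 5.08 CPM on drug (log2 fold change 3.38 ± 0.12, adjusted p = 1.22e-12, edgeR). All 3 were several-fold higher in both libraries off drug. In the list of YAP and TEAD targets, which also holds YAP1 and WWTR1 themselves, 8 rose and 1 fell of 10 tested. WWTR1, which encodes TAZ, a relative of YAP, had 279 and 283 CPM at 24 h, against 77.8 and 73.8 CPM on drug (log2 fold change 1.89 ± 0.067, adjusted p = 7.82e-13, edgeR). CTGF, a matricellular target of YAP, had 124 and 111 CPM at 24 h, against 17.9 and 20.1 CPM on drug (log2 fold change 2.63 ± 0.096, adjusted p = 1.05e-12, edgeR), while AMOTL2, another target, fell to 16 and 14.1 CPM at 24 h, against 21.6 and 22.9 CPM on drug (log2 fold change -0.56 ± 0.13, adjusted p = 0.00182, edgeR).

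The cell cycle genes were divided at 24 h. Among G1 cyclins, CDK inhibitors and growth arrest genes 13 rose and 7 fell of 24 tested. CDKN1A (ENSG00000124762, chr6:36676460-36687339), which encodes the CDK inhibitor p21, had 139 and 117 CPM at 24 h, against 2.91 and 2.38 CPM on drug. Its level rose 48.7-fold (log2 fold change 5.61 ± 0.15, adjusted p = 2.9e-14, edgeR), the largest rise of this list as fitted. CDKN2B, which encodes p15, had 52.6 and 43.5 CPM at 24 h, against 4.20 and 4.09 CPM on drug (log2 fold change 3.54 ± 0.12, adjusted p = 4.95e-13, edgeR). CDKN1B, which encodes p27, did not pass the test, at 87.1 and 97.2 CPM at 24 h, against 87.3 and 86.7 CPM on drug (log2 fold change 0.081 ± 0.066, adjusted p = 0.32, edgeR). CCNG1, which encodes cyclin G1, fell to 52.2 and 55.6 CPM at 24 h, against 130.0 and 119 CPM on drug (log2 fold change -1.21 ± 0.071, adjusted p = 4.59e-10, edgeR). CDK4, the partner of cyclin D1, fell to 119 and 108 CPM at 24 h, against 173 and 177 CPM on drug (log2 fold change -0.62 ± 0.066, adjusted p = 6.37e-07, edgeR). Cyclin D1 and these 2 CDK inhibitors thus rose while CDK4 fell.

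Most replication genes fell slightly and mitotic genes went both ways. Of the DNA replication and S phase list 4 rose and 18 fell of 30 tested, with a median log2 fold change of -0.30. CHAF1A, a chaperone that loads histones on new DNA, had 45.4 and 48.5 CPM at 24 h, against 81.1 and 91 CPM on drug (log2 fold change -0.88 ± 0.076, adjusted p = 5.9e-08, edgeR). TK1, thymidine kinase, had 107 and 105 CPM at 24 h, against 171 and 170.4 CPM on drug (log2 fold change -0.69 ± 0.064, adjusted p = 1.44e-07, edgeR). RRM2, a subunit of ribonucleotide reductase, was the exception in size, with 700.1 and 721 CPM at 24 h, against 291 and 286 CPM on drug, a rise (log2 fold change 1.30 ± 0.064, adjusted p = 4.72e-11, edgeR). Of the G2 and mitosis list 7 rose and 8 fell of 28 tested, with a median of -0.037. The share called, 53.6%, was near the 54.1% of all genes tested. UBE2C, a ubiquitin-conjugating enzyme of the anaphase-promoting complex, had 192 and 200.4 CPM at 24 h, against 120.0 and 119 CPM on drug (log2 fold change 0.72 ± 0.075, adjusted p = 5.23e-07, edgeR). FOXM1, the factor that drives mitotic genes, fell to 188 and 191 CPM at 24 h, against 303 and 309 CPM on drug (log2 fold change -0.69 ± 0.077, adjusted p = 1.21e-06, edgeR). No gene of that list was both called and changed at least 2-fold at 24 h. CHAF1A overlaps UBXN6 on the other strand, and FOXM1 overlaps RHNO1 and ITFG2 there, so unstranded counts could be shared. Over all 451Lu libraries CHAF1A held 4720 counts and UBXN6 7424, and FOXM1 held 16003, RHNO1 5130 and ITFG2 2043.

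Death-promoting and protective genes stood among both the risers and the fallers of the apoptosis list. In it 16 rose and 3 fell of 23 tested, with a median log2 fold change of 0.62. PMAIP1, which encodes the death-promoting protein NOXA, had 212 and 214 CPM at 24 h, against 29.8 and 29.2 CPM on drug (log2 fold change 2.85 ± 0.077, adjusted p = 4.06e-14, edgeR). MCL1 and BCL2A1, which NOXA binds, are the protective genes given above, and rose too. BBC3, which encodes PUMA, fell to 3.07 and 3.41 CPM at 24 h, against 7.04 and 8.40 CPM on drug (log2 fold change -1.26 ± 0.20, adjusted p = 5.41e-05, edgeR). BCL2L11, which encodes BIM and is known to be repressed by ERK, fell to 16 and 16.4 CPM at 24 h, against 23.9 and 24.5 CPM on drug (log2 fold change -0.58 ± 0.10, adjusted p = 0.000186, edgeR). BCL2, a protective gene, fell to 10.1 and 13.5 CPM at 24 h, against 20.5 and 19 CPM on drug (log2 fold change -0.75 ± 0.13, adjusted p = 0.00014, edgeR).

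Interferon-stimulated genes did not move as 1 group. In this list 13 rose and 7 fell of 29 tested, with a median log2 fold change of 0.30. The IFIT genes, which block translation of viral RNA, rose. IFIT1 had 44.8 and 47.8 CPM at 24 h, against 4.65 and 5.69 CPM on drug (log2 fold change 3.15 ± 0.12, adjusted p = 2.41e-12, edgeR). IFIT2 had 68.3 and 68.8 CPM at 24 h, against 12.1 and 10.1 CPM on drug (log2 fold change 2.64 ± 0.093, adjusted p = 6.93e-13, edgeR). IFIT3 had 80.5 and 84 CPM at 24 h, against 31.7 and 31.1 CPM on drug (log2 fold change 1.39 ± 0.071, adjusted p = 6.59e-11, edgeR). All 3 overlap LIPA in the annotation, so unstranded counts could be shared with it. Other members fell. IFI6, a mitochondrial interferon-induced protein, fell to 8.02 and 8.73 CPM at 24 h, against 16.7 and 18.5 CPM on drug (log2 fold change -1.08 ± 0.13, adjusted p = 2.2e-06, edgeR). STAT2, which carries the interferon signal to the nucleus, fell to 44.6 and 47.7 CPM at 24 h, against 60.4 and 71.3 CPM on drug (log2 fold change -0.52 ± 0.086, adjusted p = 8.71e-05, edgeR).

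Metabolic lists differed in direction. Of glycolysis and hypoxia genes 20 rose and 0 fell of 24 tested, with a median log2 fold change of 0.54. NDRG1, induced by hypoxia and other stress, had 346 and 400.0 CPM at 24 h, against 17.2 and 23.3 CPM on drug (log2 fold change 4.19 ± 0.12, adjusted p = 4.94e-14, edgeR). PKM, pyruvate kinase, had 8761 and 8155 CPM at 24 h, against 3526 and 3651 CPM on drug (log2 fold change 1.24 ± 0.054, adjusted p = 1.15e-11, edgeR). In the integrated stress response list 4 rose and 13 fell of 19 tested. ASNS, asparagine synthetase and a target of ATF4, fell to 54.2 and 53.5 CPM at 24 h, against 193 and 201 CPM on drug (log2 fold change -1.87 ± 0.063, adjusted p = 3.91e-13, edgeR). PHGDH, the first enzyme of serine synthesis, fell to 174 and 179.5 CPM at 24 h, against 512 and 531 CPM on drug (log2 fold change -1.56 ± 0.054, adjusted p = 5.59e-13, edgeR). DDIT4, an inhibitor of mTORC1, rose instead, with 445 and 495 CPM at 24 h, against 124 and 152 CPM on drug (log2 fold change 1.77 ± 0.080, adjusted p = 1.75e-11, edgeR). Serine and asparagine synthesis genes thus fell while this stress gene rose.

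Lipid, lysosome and respiration genes mostly fell. Of cholesterol and fatty acid synthesis genes 2 rose and 19 fell of 26 tested, with a median log2 fold change of -0.38. DHCR7, the last enzyme of cholesterol synthesis, fell to 97.6 and 102 CPM at 24 h, against 282 and 277 CPM on drug (log2 fold change -1.48 ± 0.061, adjusted p = 4.39e-12, edgeR). SCD, which desaturates fatty acids, fell to 514 and 606 CPM at 24 h, against 1562 and 1727 CPM on drug (log2 fold change -1.56 ± 0.079, adjusted p = 6.87e-11, edgeR). Among lysosome and V-ATPase genes 4 rose and 23 fell of 28 tested. ASAH1, acid ceramidase, fell to 118 and 127 CPM at 24 h, against 669 and 639 CPM on drug (log2 fold change -2.42 ± 0.064, adjusted p = 2.9e-14, edgeR). CTSL, the protease cathepsin L, was the largest rise of the 4, with 390.1 and 338 CPM at 24 h, against 58.1 and 57.8 CPM on drug (log2 fold change 2.65 ± 0.10, adjusted p = 1.86e-12, edgeR). In the nuclear respiratory chain list 1 rose and 16 fell of 27 tested, led by ATP5C1, a subunit of ATP synthase, with 117 and 121 CPM at 24 h, against 177 and 174 CPM on drug (log2 fold change -0.55 ± 0.059, adjusted p = 7e-07, edgeR). Of the mitochondrially encoded genes 0 rose and 10 fell of 13 tested, among them MT-CO1, a cytochrome oxidase subunit, with 8946 and 9004 CPM at 24 h, against 12198 and 11819 CPM on drug (log2 fold change -0.42 ± 0.054, adjusted p = 6.31e-06, edgeR). These genes made up 3.97% and 4.03% of counts at 24 h, against 6.11% and 5.51% on drug, and the part of this share in the other results was not tested, except that leaving these genes out gave 7479 calls at 24 h.

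The genes with the smallest p-values and the largest folds lay partly outside these lists. SLC16A6 (ENSG00000108932, chr17:68267026-68291267), a monocarboxylate transporter, had 1059 and 1003 CPM at 24 h, against 29.3 and 29.1 CPM on drug, and with log2 fold change 5.14 ± 0.076, adjusted p = 1.32e-16 it had the smallest p of all genes by edgeR. HMGA2, a chromatin protein, had 238 and 233 CPM at 24 h, against 20 and 19.8 CPM on drug (log2 fold change 3.57 ± 0.064, adjusted p = 5.51e-16, edgeR). SPP1 (ENSG00000118785, chr4:87975650-87983426), which encodes osteopontin, had 292 and 226 CPM at 24 h, against 0.775 and 0.718 CPM on drug, a rise of 344-fold (log2 fold change 8.43 ± 0.24, adjusted p = 8.29e-14, edgeR). MMP9, a gelatinase, had 124 and 94.4 CPM at 24 h, against 0.388 and 0.332 CPM on drug, a rise of 298-fold (log2 fold change 8.22 ± 0.33, adjusted p = 3.62e-12, edgeR). Neither reached 1 CPM in a library on drug. RP11-166D19.1, a long non-coding RNA, had 25 and 18.9 CPM at 24 h, against 0.194 and 0.0553 CPM on drug (log2 fold change 7.42 ± 0.31, adjusted p = 4.63e-12, edgeR). EDARADD, an adaptor of the ectodysplasin receptor, had 8.16 and 6.73 CPM at 24 h, against 0 and 0 CPM on drug, at least 84-fold higher against the floor of 3 counts. AC112721.2 and AC112721.1, non-coding neighbours on chromosome 2, also had 0 counts on drug. In libraries off drug AC112721.2 had 6.35 and 4.90 CPM, a rise of at least 63.6-fold, and AC112721.1 had 5.86 and 4.16 CPM, a rise of at least 56.9-fold.

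Among falls, GALNT3 (ENSG00000115339, chr2:165747591-165794682), which starts mucin-type sugar chains on proteins, had 0.628 and 0.748 CPM at 24 h, against 129 and 128 CPM on drug and was 186-fold lower (log2 fold change -7.54 ± 0.14, adjusted p = 5.63e-16, edgeR). CFAP61, a cilium and flagellum protein that overlaps CRNKL1 on the other strand, had 1.12 and 0.914 CPM at 24 h, against 87.5 and 89.4 CPM on drug (log2 fold change -6.42 ± 0.15, adjusted p = 6.9e-15, edgeR). AC009495.4, which overlaps AC009495.3 on the same strand, had 0 and 0 CPM at 24 h, against 10.1 and 11.9 CPM on drug, at least 97.1-fold lower. PPP2R2B, a regulatory subunit of phosphatase 2A, had 0 and 0 CPM at 24 h, against 2.65 and 2.87 CPM on drug, at least 24.4-fold lower. C17orf77 had 0 and 0 CPM at 24 h, against 2.33 and 2.65 CPM on drug, at least 22-fold lower. PLCH1-AS1 had 0.0697 and 0.0831 CPM at 24 h, against 9.69 and 10.9 CPM on drug, a ratio of on drug over 24 h of 137 (95% interval 37.6 to 1133). RP3-527G5.1 had 0.0697 and 0 CPM at 24 h, against 6.01 and 6.91 CPM on drug, a ratio of 171 (95% interval 30.4 to 6795). In the last 5 of these genes no library at 24 h held more than 1 count.

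Markers of other cell types were not at a fixed level either. Of the 9 tested, 6 rose and 1 fell: KRT18, a keratin of simple epithelia, had 63 and 63.4 CPM at 24 h, against 18.6 and 19.3 CPM on drug (log2 fold change 1.73 ± 0.077, adjusted p = 1.28e-11, edgeR). LUM, the matrix protein lumican, fell to 24.2 and 28.9 CPM at 24 h, against 145 and 132 CPM on drug (log2 fold change -2.39 ± 0.087, adjusted p = 1.1e-12, edgeR). PECAM1, an endothelial marker, had 1.19 and 1.91 CPM at 24 h, against 0 and 0 CPM on drug, at least 17-fold higher against the floor. PDGFRB, a mesenchymal receptor that stands also in the dedifferentiation list, had 4.60 and 2.49 CPM at 24 h, against 0.323 and 0.276 CPM on drug (log2 fold change 3.56 ± 0.39, adjusted p = 1.05e-06, edgeR). EPCAM, PTPRC and ALB were at 0, as given above, but other markers of epithelium and blood cells were not. KRT8 (epithelium) had 37 and 36 counts at 24 h, against 20 and 34 on drug. CD68 and LYZ (blood cells) had 10 and 1 and 1 and 1 counts at 24 h, against 2 and 5 and 0 and 1 on drug. VWF, another endothelial marker, had 6 and 7 counts at 24 h, against 12 and 19 on drug. The summed level of the list was lower at 24 h with LUM and higher without it, and the part of these markers in the other results was not tested.

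The later 451Lu libraries show which changes at 24 h went further. At 72 h against 24 h, 51.4% of genes were called by edgeR, 25.9% higher and 25.5% lower. That comparison uses the same libraries at 24 h, so its values stand beside those above and add no independent support. Of the 30 replication genes all 30 were lower at 72 h than at 24 h, and of the 28 mitotic genes all 28. The median log2 fold changes, 72 h minus 24 h, were -1.20 and -2.47. CCNB1, the mitotic cyclin B1, had 112 and 109.8 CPM on drug, 137 and 150.2 CPM at 24 h, 17.9 and 22.7 CPM at 72 h and 5.30 and 5.38 CPM at 120 h. FOXM1 had 303 and 309, 188 and 191, 26.8 and 36.7 and 2.89 and 3.56 CPM at the same times. RRM2, high at 24 h, had 291 and 286, 700.1 and 721, 207 and 215 and 77.8 and 65.6 CPM. The larger falls of these genes therefore came after 24 h.

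Among the fixed genes MITF and SOX10 parted from MLANA and DCT after 24 h. Of the 26 melanocyte regulators and pigment genes, 6 were higher and 9 lower at 72 h than at 24 h. Their median log2 fold change, 72 h minus 24 h, was 0.078. MITF had 590.5 and 583, 137 and 149.9, 274 and 281 and 266 and 292 CPM on drug and at 24, 72 and 120 h, so that its lowest level was at 24 h. SOX10 was also lowest at 24 h and higher at 72 h (log2 fold change, 72 h minus 24 h, 0.66, edgeR adjusted p = 4.47e-07). MLANA went on falling, with 595 and 588, 118 and 128, 7.09 and 10.9 and 3.37 and 4.84 CPM. FOSL1 was highest at 24 h, with 32.4 and 32.5, 241 and 209.9, 76.1 and 80.7 and 61.5 and 69.7 CPM. DUSP6, in contrast, went on rising, with 23 and 20.2, 538 and 444, 1157 and 1087 and 1221 and 1146 CPM. IFIT1 peaked at 24 h, with 4.65 and 5.69, 44.8 and 47.8, 14.2 and 16.7 and 6.18 and 7.48 CPM. CTGF did so too, with 17.9 and 20.1, 124 and 111, 72.7 and 82.7 and 18 and 21.9 CPM.

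**Figure D4:**
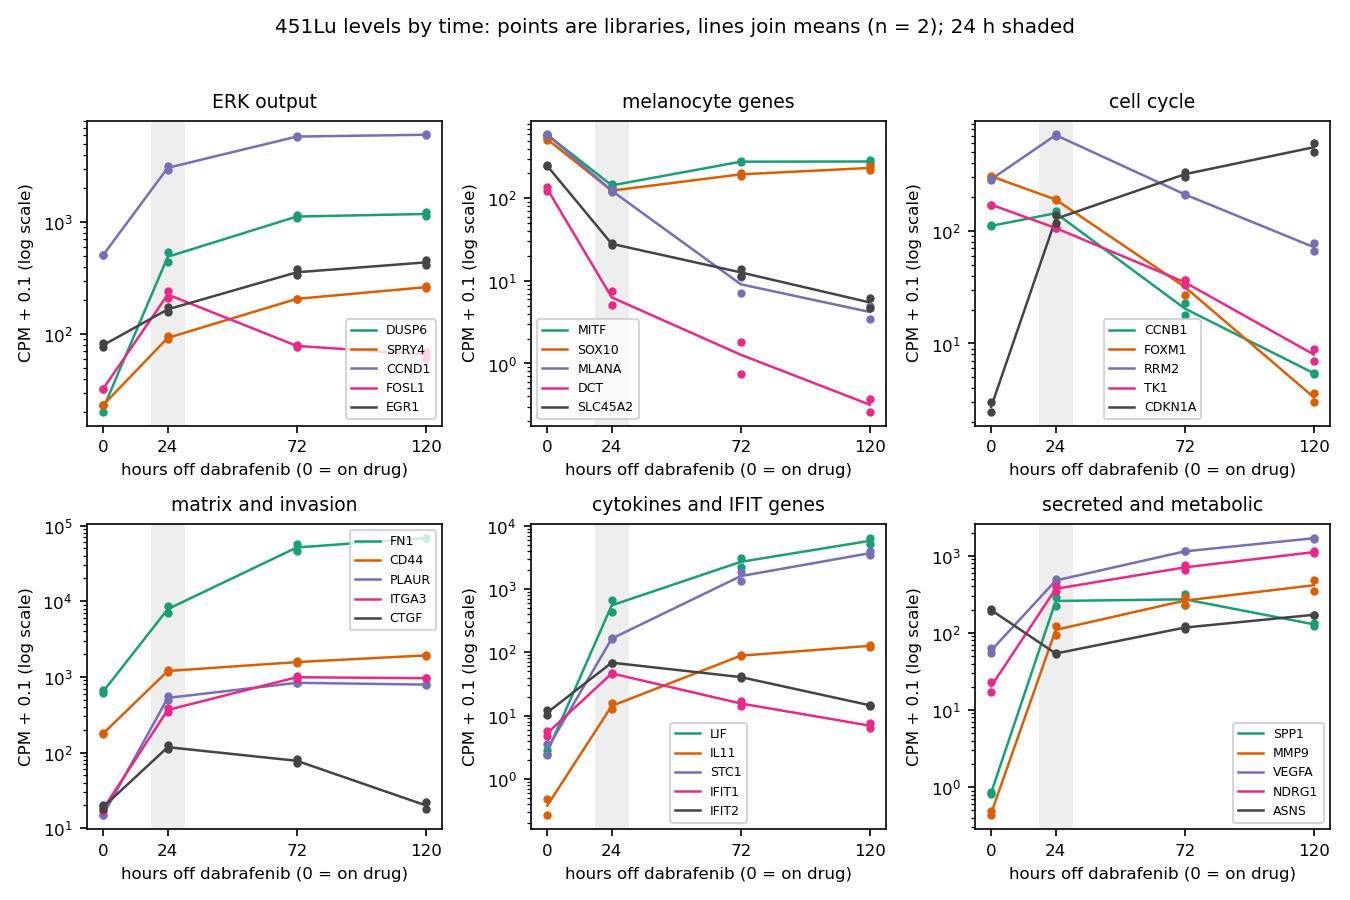
Level (CPM + 0.1, log scale) of 30 genes in 451Lu on drug (0) and at 24, 72 and 120 h off dabrafenib; points are libraries, lines join the means (n = 2) and the 24 h column is shaded. FOSL1, RRM2, CTGF, IFIT1 and IFIT2 are highest at 24 h, MITF, SOX10 and ASNS are lowest at 24 h, and CCNB1, FOXM1 and TK1 fall steeply after it.

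Set beside A375 at 24 h, the 451Lu change was partly shared. The lines share no libraries, but each came off its own treatment, so line and drug cannot be told apart. Across 12814 genes tested in both lines, the 2 log2 fold changes correlated with a Pearson r of 0.52 and a Spearman rho of 0.40 as a description across genes, which are not independent replicates. Of these 12814 genes, 1011 in 451Lu and 1157 in A375 were called and at least 2-fold higher. The lines shared 477 of them, 47.2% of those in 451Lu and 41.2% of those in A375. Called and at least 2-fold lower were 772 of the 12814 in 451Lu and 1395 in A375. Here 292 were shared, 37.8% of those in 451Lu and 20.9% of those in A375. Opposite changes of that size were found for 58 genes higher in 451Lu and lower in A375 (5.74% of the 1011 and 4.16% of the 1395). The other way round there were 32 (4.15% of the 772 and 2.77% of the 1157). In the joint fit, 49.4% of 15481 genes differed in their change by edgeR, with 22% higher and 27.4% lower in 451Lu.

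SOX10 separated the lines. In A375 it had 654 and 610.2 CPM at 24 h, against 642 and 658 CPM on drug, and the difference in change, 451Lu minus A375, was -2.09 ± 0.084 on the log2 scale (edgeR adjusted p = 1.04e-16). MITF fell in both, with 111 and 123 CPM at 24 h, against 415 and 405 CPM on drug in A375. MYC rose in A375, with 335 and 304 CPM at 24 h, against 95.1 and 90.5 CPM on drug, and the difference was -2.33 ± 0.089 (edgeR adjusted p = 3.87e-17). EGR1 had 736 and 684 CPM at 24 h, against 5.72 and 5.90 CPM on drug in A375, a far larger rise (difference -5.93 ± 0.13, edgeR adjusted p = 4.24e-22). DUSP6 rose more in 451Lu, and in A375 had 134 and 142 CPM at 24 h, against 29.2 and 30.3 CPM on drug (difference 2.24 ± 0.12, edgeR adjusted p = 3.42e-14). FN1 fell slightly in A375, where it had 119 and 116 CPM at 24 h, against 141 and 129 CPM on drug (difference 3.75 ± 0.12, edgeR adjusted p = 1.97e-18). CDKN1A had 465 and 447 CPM at 24 h, against 158 and 162 CPM on drug in A375 (difference 4.03 ± 0.17, edgeR adjusted p = 1.95e-16).

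The largest differences by the naming rule were these. SPP1 had 25.7 and 27.6 CPM at 24 h, against 35.5 and 34.4 CPM on drug in A375, unlike the rise in 451Lu given above (difference 8.76 ± 0.28, edgeR adjusted p = 8.87e-19). AREG, the ligand amphiregulin, did not pass the test in 451Lu, with 0.0697 and 0.249 CPM at 24 h, against 0.323 and 0.0553 CPM on drug, and rose in A375, with 742 and 731 CPM at 24 h, against 0.236 and 0.137 CPM on drug. IL11 had 304 and 289 CPM at 24 h, against 0 and 0 CPM on drug in A375, so that the fitted difference is no bound on its size. PTPN22, a lymphocyte phosphatase, had 5.65 and 6.48 CPM at 24 h, against 16.1 and 14.3 CPM on drug in 451Lu, a fall, but 1.63 and 1.54 CPM at 24 h, against 0 and 0 CPM on drug in A375. Lists differed too. Of 26 cholesterol and fatty acid genes, 18 rose and 6 fell in A375 (where 72.6% of all genes tested were called, 36.2% higher and 36.3% lower), and the joint fit called 22 lower in 451Lu and 1 higher. Of 28 lysosome and V-ATPase genes it called 18 lower and 1 higher. IFIT1 fell in A375, where it had 0.440 and 0.342 CPM at 24 h, against 2.30 and 1.78 CPM on drug (difference 5.43 ± 0.38, edgeR adjusted p = 8.95e-12).

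**Figure D5:**
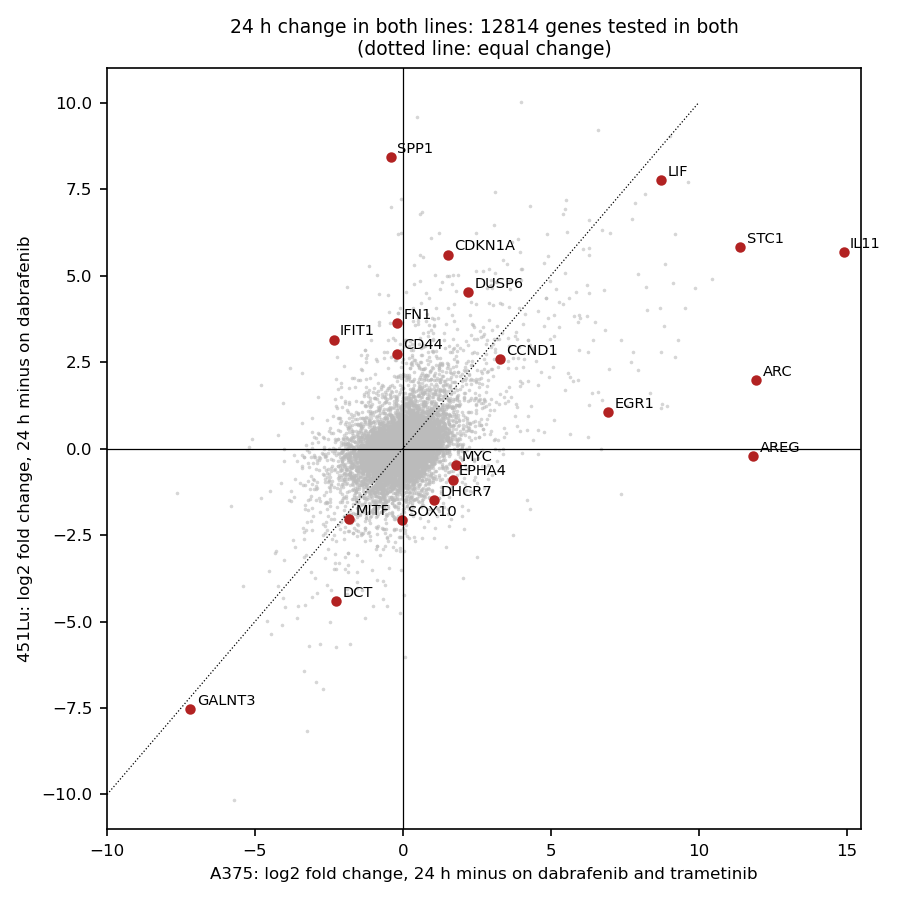
Fitted log2 fold change at 24 h minus on drug in 451Lu (vertical axis) against that in A375 (horizontal axis) for 12814 genes tested in both lines; the dotted line marks equal change and named genes are red. GALNT3 and LIF lie near the line, SPP1, FN1 and IFIT1 lie above it, and EGR1, ARC and AREG below it.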

How the data were processed

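The submitters' processing notes name TopHat2 2.1.0, Bowtie 1.0.0 and the build GRCh38 for the authors' alignment. Raw counts of reads were deposited for 30813 genes in 16 libraries, as whole numbers with no normalization. How reads were counted, with which annotation and strand setting, is not given in the sources used here. Every deposited column of counts was used.

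Counts of the 8 libraries of 451Lu were fitted with edgeR 4.0.16 (R 4.3.3): TMM scaling, filterByExpr (minimum count 10, minimum total 15), 1 factor of 4 groups and the quasi-likelihood F test, with 4 residual degrees of freedom and a common biological coefficient of variation of 4.98%. Benjamini-Hochberg adjustment ran over the 13851 genes tested, with a threshold of 0.05. Each SE is the size of the log2 fold change over the root of its F value. For the line difference, the 16 libraries were fitted jointly over 15481 genes (8 residual degrees of freedom). The fits were tested on simulated data. After TMM scaling every change is relative to the rest of the library and says nothing of RNA amounts per cell. Where a group had 0 counts the fold is a bound against 3 counts over its 2 libraries. Where it had 1 to 3 counts, the ratio has an exact Clopper-Pearson interval of 95%. Both cover counting error only.

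The members and the 24 lists (593 entries, 586 matched by symbol) were chosen with earlier results of these data known. Named genes are the 8 largest rises and 8 largest falls that were called, did not overlap and reached 2 CPM, the smallest p-values of each list (up to 3 per direction, some left out for length, and some not reported here), 17 fixed genes, the 5 largest line differences in each direction that reached 5 CPM, and the 5 smallest p-values. Motifs were searched on both strands of RefSeq promoter windows (GRCh38.p14). With chromosome 8 left out, these windows matched 99 of 154 named genes and 12 of the 17 fixed ones. The shares over all windows and over the lists were counted without leaving it out. Alternatives were RLE size factors, no filter, DESeq2 1.42.0, a replicate block, a test against a fold of 1.5, leaving out each library, fitting only the libraries compared, and leaving out mitochondrially encoded genes. The replicate numbers stand for the letters B and C, which the sample titles carry at every time. Same-numbered libraries on drug and at 24 h did not deviate together (correlation -0.042 over 10398 genes), so the numbers were not taken to pair them in the main fit.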

Additional observations from a re-analysis of the deposited data

Results flagged for a closer look

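Some 24 h changes differed between 451Lu and A375 in the joint edgeR fit. Differences are log2 fold changes, 451Lu minus A375, and each line came off its own treatment. Among the fixed genes the change was higher in 451Lu for CDKN1A (4.03), FN1 (3.75) and DUSP6 (2.24). It was lower in 451Lu for EGR1 (-5.93), MYC (-2.33), DCT (-2.22), SOX10 (-2.09), CCND1 (-0.77), MAPK3 (-0.61), FOSL1 (-0.38), MLANA (-0.38), SPRY4 (-0.35) and MITF (-0.29). The call of MITF was lost without 451Lu 24 h replicate 1 or A375 24 h replicate 2. That of FOSL1 was lost without 451Lu 24 h replicate 2, A375 24 h replicate 1 or A375 on-drug replicate 1.

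The 5 largest differences upward were those of EDARADD (9.14), SPP1 (8.76), KCNJ2 (7.70), PDGFC (7.39) and TMEM178B (6.51). The 5 largest downward were those of AREG (-12.13), ARC (-9.94), IL11 (-9.19), PTPN22 (-8.67) and PTPRN (-8.19). All of these but SPP1 had a group with 6 or fewer counts per line and time, so the fitted values depend on the prior count and are no bounds. KCNJ2, a potassium channel, had 20.1 and 17.5 CPM at 24 h, against 2.91 and 2.71 CPM on drug in 451Lu, and 0 and 0 CPM at 24 h, against 0.295 and 0.343 CPM on drug in A375. ARC, an activity-induced gene, had 4.88 and 3.24 CPM at 24 h, against 1.03 and 1.05 CPM on drug in 451Lu, and 40.7 and 35.4 CPM at 24 h, against 0 and 0 CPM on drug in A375. PDGFC, a growth factor, had 0.767 and 1.75 CPM at 24 h, against 0 and 0 CPM on drug in 451Lu, at least 13.6-fold higher, and 4.97 and 6.50 CPM at 24 h, against 8.44 and 6.31 CPM on drug in A375. TMEM178B had 0.697 and 1.33 CPM at 24 h, against 0 and 0.0553 CPM on drug in 451Lu, and 25.3 and 27.2 CPM at 24 h, against 102 and 93.6 CPM on drug in A375. PTPRN was not tested in the 451Lu fit, with 0 and 0.0831 CPM at 24 h, against 0.0646 and 0.0553 CPM on drug.

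Within 451Lu, most fixed genes changed again at 72 h against 24 h by edgeR (log2 fold change, 72 h minus 24 h). Higher at 72 h were FN1 (2.71), AXL (1.67), CDKN1A (1.31), DUSP6 (1.19), SPRY4 (1.16), EGR1 (1.10), MITF (0.95), CCND1 (0.93), SOX10 (0.66), BRAF (0.52) and MAPK3 (0.42). Lower at 72 h were MLANA (-3.76), DCT (-2.33), FOSL1 (-1.53), CDKN1B (-0.39) and MYC (-0.23). The call of MYC was lost without 451Lu 24 h replicate 1 or 72 h replicate 1.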

How the results depend on the processing

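At 24 h the count of called genes was 7491 as reported, 7481 with RLE size factors, 7444 with no filter, 5922 with DESeq2, 7840 with a replicate block, 7776 when only the 4 libraries compared were fitted, 7479 without mitochondrially encoded genes and 5978 to 6587 with each library left out. Tested against a fold of 1.5, which asks for a larger change by construction, 2373 genes were called (1284 higher, 1089 lower). The same test left 1768 at 72 h against 24 h (1069 higher, 699 lower, so that 60.5% of calls were higher, against 50.4% without it), and 2722 for the line difference (1280 higher, 1442 lower). Leaving out 1 library gave 5837 to 6200 calls at 72 h against 24 h and 6712 to 7153 for the line difference. Of 1678 values for 153 named genes at 24 h under these alternatives, 1593 stayed called or not called as reported, 85 lost the call and no called change reversed. AREG, called in none of these fits, changed sign among them (log2 fold change -1.25 to 1.31). Of the losses 52 came under the fold of 1.5. The others were of 10 genes, among them POLR1B, BTG2, NR4A3, CHAC1, HERPUD1, NCL, HSPE1, RPLP1 and CALR, and the cause was not tested. The replicate block reversed no called change of a named gene. Off drug, same-numbered libraries did deviate together (correlations 0.24 to 0.34 between 24, 72 and 120 h). Replicate 1 at 24 h was the higher of the 2 in 63.4% of genes that rose at least 2-fold. It was so in 38% of those that fell at least 2-fold, against 50.1% of all genes tested. The median log2 difference, replicate 1 minus replicate 2, was 0.072 among those risers and -0.065 among those fallers. With 2 libraries per group, low genes such as AXL or PECAM1 are known only to within the counts behind them.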

Other observations

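Changes of protein synthesis genes at 24 h were small. Of 26 ribosome biogenesis genes 12 rose, 2 fell and 12 did not pass the test (53.8% called, against 54.1% of all genes), with a median log2 fold change of 0.16. NOP2, a methyltransferase of ribosomal RNA, had 161 and 152 CPM at 24 h, against 127 and 121 CPM on drug (log2 fold change 0.33 ± 0.058, adjusted p = 0.000143, edgeR). NCL, which encodes nucleolin, fell to 1448 and 1468 CPM at 24 h, against 1637 and 1611 CPM on drug (log2 fold change -0.16 ± 0.051, adjusted p = 0.0164, edgeR), a call lost in each fit that left out a library. Of 35 ribosomal protein genes 19 rose and 4 fell, with a median of 0.15. RPL7, of the large subunit, had 409 and 395 CPM at 24 h, against 299 and 280.0 CPM on drug (log2 fold change 0.47 ± 0.055, adjusted p = 1.82e-06, edgeR). RPL13 fell to 202 and 177 CPM at 24 h, against 281 and 275 CPM on drug (log2 fold change -0.55 ± 0.069, adjusted p = 4.09e-06, edgeR). No gene of either list was both called and changed at least 2-fold. Reads of ribosomal protein genes can be shared with their pseudogenes, so their values are uncertain.

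Of 21 heat shock and ER chaperone genes 9 rose, 3 fell and 9 did not pass the test. The share called, 57.1%, was near the 54.1% of all genes tested. BAG3, a co-chaperone, had 40.9 and 35.9 CPM at 24 h, against 19.8 and 19.5 CPM on drug (log2 fold change 0.97 ± 0.086, adjusted p = 8.06e-08, edgeR). HSPA1A, the inducible HSP70, had 36.3 and 34.9 CPM at 24 h, against 17.7 and 16.5 CPM on drug (log2 fold change 1.06 ± 0.095, adjusted p = 8.68e-08, edgeR), and its near-identical copy HSPA1B makes that value uncertain. CALR, the ER chaperone calreticulin, fell to 749 and 731 CPM at 24 h, against 838 and 871 CPM on drug (log2 fold change -0.21 ± 0.057, adjusted p = 0.00568, edgeR).

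By gene class, 57.5% of 11997 protein-coding genes were called, against 37.9% of 572 lincRNAs, 31.6% of 586 antisense genes and 25.6% of 348 pseudogenes. Calls of at least 2-fold did not follow that order. They were 1020 higher and 783 lower for protein-coding genes and 76 and 74 for lincRNAs. For antisense genes they were 49 and 55, and for pseudogenes 18 and 27. The part of count depth in the shares called was not tested.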
